A study of Mus musculus with 8 samples.

Results

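CC chemokine ligands are small secreted proteins that draw leukocytes along a gradient, and they were followed here in immature myeloid cells (IMCs) from mice with a myeloid deletion of PARP1 or PARP2. The genes were chosen by symbol from the deposited count table. They were Ccl3, Ccl4, Ccl6 and Ccl9, their chromosome 11 neighbors Ccl2, Ccl7 and Ccl12, the nearby Ccl5, and Ccl22 and Ccl24 on other chromosomes. All 10 were in the table of 24062 genes, and all 10 were among the 13197 genes with enough counts to be tested. In PARP2CKO IMCs, Ccl3 fell 1.98-fold and Ccl9 fell 2.01-fold. Both PARP2CKO libraries also lay below both PARP2 WT libraries for Ccl4 and Ccl6, as for 18.8% of all genes tested. Neither Ccl4 nor Ccl6 passed the test. Ccl2, Ccl7, Ccl12, Ccl5, Ccl22 and Ccl24 were not called in that comparison, and none of the 10 ligands was called in PARP1CKO IMCs. Nor was any of the 10 called when the PARP2CKO effect was tested against the PARP1CKO effect. For Ccl3 the adjusted p was 0.122 by edgeR's quasi-likelihood test. Of 8 alternatives besides leaving out a library, 6 kept the calls of Ccl3 and Ccl9. The calls were lost with the PARP2 WT and PARP2CKO libraries alone and with a stricter filter on low counts. They were also lost when either PARP1 WT library or either PARP2CKO library was left out.

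The study sequenced total RNA in 8 libraries, as duplicates of 4 groups, from bone marrow cells of C57BL/6 mice aged 2 months grown for 3 days in M-CSF, the growth factor of the monocyte lineage, at 40 ng per mL. PARP1 WT and PARP2 WT mice were homozygous for a floxed Parp1 or Parp2 gene and carried no Cre, and PARP1CKO and PARP2CKO mice carried the same floxed gene and lysozyme-Cre, which acts in myeloid cells. Every mouse therefore had floxed alleles, the Cre drivers were present only in the CKO groups, and no group carried Cre without a floxed gene. PARP1 and PARP2 are nuclear enzymes that attach poly-ADP-ribose to proteins at sites of DNA damage and in chromatin. The study calls the libraries of a group biological duplicates, but no label names the mouse or culture of each, so p-values measure only the spread between these libraries.

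CC ligands act through G-protein-coupled receptors of the CCR family, and most are encoded in tandem arrays that arose by gene duplication. Ccl3 and Ccl4 encode the macrophage inflammatory proteins, and CCL3 binds CCR1. Ccl6 and Ccl9 encode mouse ligands of CCR1 that myeloid cells make without an added stimulus. Ccl2, Ccl7 and Ccl12 encode the monocyte chemoattractants that bind CCR2, Ccl5 encodes a ligand of CCR1 and CCR3 that T cells and activated macrophages make, Ccl22 encodes a CCR4 ligand of dendritic cells and macrophages, and Ccl24 encodes an eotaxin that binds CCR3.

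Libraries held between 37852450 and 61845125 counts on genes, and levels are given as CPM, counts scaled to library size with TMM factors and given per 1e6. Parp1 went from 206 ± 6.18 CPM (PARP1 WT) to 61.2 ± 2.91 CPM (PARP1CKO) and Parp2 from 48.3 ± 0.105 CPM (PARP2 WT) to 25.7 ± 0.0779 CPM (PARP2CKO), as means with SD of n = 2 libraries, with adjusted p = 0.0134 and 0.000139 by edgeR's quasi-likelihood test, so each labelled deletion was visible in its own libraries. PARP2 WT replicate 1 had 251 CPM of Parp1, more than the 155 CPM of replicate 2. Itgam, which encodes the myeloid antigen CD11b, had mean levels between 889 and 995 CPM in the 4 groups. Ly6g, the antigen of granulocytic cells, was not analysed here. These are bulk cultures, so fewer cells that make a ligand and less ligand RNA in each cell cannot be told apart.

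Positions are from GENCODE M21 on the GRCm38 (mm10) build, which is also the build the authors mapped to. On chromosome 11 the ligand genes form a left and a right cluster. The left cluster holds Ccl2 (chr11:82035571-82037453), Ccl7 (chr11:82045712-82047525) and Ccl12 (chr11:82101845-82103400), all on the plus strand. The right cluster, which begins 1422377 bases beyond the end of Ccl12, holds Ccl5 (chr11:83525778-83530518), Ccl9 (chr11:83572919-83578636), Ccl6 (chr11:83587882-83593087) and Ccl3 (chr11:83647844-83649355) on the minus strand and Ccl4 (chr11:83662584-83664683) on the plus strand. Ccl9 and Ccl6 are 9.24 kb apart, Ccl6 and Ccl3 are 54.8 kb apart, and Ccl3 and Ccl4 are 13.2 kb apart. Ccl22 lies on the plus strand of chromosome 8 (chr8:94745590-94751699) and Ccl24 on the minus strand of chromosome 5 (chr5:135569937-135573049).

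Some of these gene models overlap others. The RefSeq model of Ccl4 reaches back over Ccl3 on the opposite strand by 755 bases, Ccl6 lies inside the noncoding gene E230016K23Rik of the opposite strand, and Ccl2 lies inside Gm17268 of the opposite strand. Whether counting used the strand is not stated in the sources used here, so reads from such pairs may not be separable. E230016K23Rik had at most 0.44 CPM. None of the 75-base words of the ligands' GENCODE transcripts, 75 bases being the read length, occurred in a transcript of another gene.

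The promoter sequences are shown for Ccl3, Ccl6 and Ccl9, which share a pattern across libraries, and for Ccl12 of the left cluster as a neighbor outside that pattern. Each is the 250 bases before the RefSeq start on GRCm38.p6, read 5′ to 3′ on the gene's own strand from chr11:83649379-83649628 (Ccl3), chr11:83593088-83593337 (Ccl6), chr11:83578637-83578886 (Ccl9) and chr11:82101595-82101844 (Ccl12). Capitals mark matches to the motifs described after the sequences. The RefSeq table matched 5 of the 10 ligands, the fifth being Ccl22. Those of Ccl2, Ccl4, Ccl5, Ccl7 and Ccl24 are not shown.
Ccl3: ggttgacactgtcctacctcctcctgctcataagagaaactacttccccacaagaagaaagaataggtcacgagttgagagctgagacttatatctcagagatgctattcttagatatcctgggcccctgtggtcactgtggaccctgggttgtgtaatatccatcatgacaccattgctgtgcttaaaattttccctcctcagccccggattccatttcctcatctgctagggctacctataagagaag
Ccl6: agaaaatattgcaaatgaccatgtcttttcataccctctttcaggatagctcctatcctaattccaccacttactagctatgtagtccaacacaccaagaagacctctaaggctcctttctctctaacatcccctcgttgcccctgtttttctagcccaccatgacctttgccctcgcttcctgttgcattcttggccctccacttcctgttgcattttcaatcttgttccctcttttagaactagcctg
Ccl9: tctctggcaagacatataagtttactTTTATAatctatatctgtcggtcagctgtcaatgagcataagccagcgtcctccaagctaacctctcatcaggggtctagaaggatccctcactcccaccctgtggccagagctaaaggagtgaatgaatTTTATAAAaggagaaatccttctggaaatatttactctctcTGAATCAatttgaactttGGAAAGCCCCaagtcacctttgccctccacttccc
Ccl12: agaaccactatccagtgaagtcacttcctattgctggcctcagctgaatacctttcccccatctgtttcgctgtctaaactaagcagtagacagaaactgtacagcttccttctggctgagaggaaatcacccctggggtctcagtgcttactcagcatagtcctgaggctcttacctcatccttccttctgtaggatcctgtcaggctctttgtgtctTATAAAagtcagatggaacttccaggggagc
The motifs searched on both strands were the TATA box (TATAAA), an AP-1 site (TGANTCA), a C/EBP site (TTGCNNAA), the NF-kB consensus by its name, and the site of TCF factors, the partners of beta-catenin (CTTTG followed by A or T in both next positions). Ccl9 held TATAAA on the plus strand at -92 to -87, overlapping a match on the minus strand at -94 to -89, and one more match on the minus strand at -224 to -219, counted from the RefSeq start. It also held an AP-1 site at -53 to -47 and an NF-kB consensus at -35 to -26. Ccl12 held TATAAA at -31 to -26, and the windows of Ccl3, Ccl6 and Ccl22 held none of these motifs. No TCF or C/EBP letters occurred in any of the 5 windows. Of 32851 RefSeq promoter windows of this length, 12.4% held the TATA box, 6.75% the AP-1 site, 9.56% the C/EBP site, 7.25% the NF-kB consensus and 14.8% the TCF site. The longest stretch that any pair of the 5 windows shared was 13 bases, between Ccl6 and Ccl9.

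To compare levels between genes, CPM was divided by the length of a gene's merged exons in kb. In PARP2 WT IMCs the order of this level per kb was Ccl2 (403), Ccl7 (252), Ccl3 (164), Ccl9 (155), Ccl4 (96.3), Ccl6 (44.0), Ccl12 (8.29), Ccl22 (0.613), Ccl5 (0.411) and Ccl24 (0.168). The 2 libraries overlapped between Ccl3 and Ccl9 and between Ccl22 and Ccl5, and no other neighbors in this order overlapped. Ccl2 and Ccl7 were the most abundant per kb in all 4 groups, and Ccl5, Ccl22 and Ccl24 stayed under 1 CPM per kb in all 4. In PARP2CKO the level per kb of Ccl3 was 82.6, of Ccl9 77.2, of Ccl4 46.5 and of Ccl6 12, so that Ccl6 came close to Ccl12 (7.89), while Ccl2 was at 443 and Ccl7 at 262. The order of the genes in PARP2CKO was the same as in PARP2 WT.

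The question behind the PARP2CKO comparison is whether loss of PARP2 in myeloid cells changes their chemokine output. Ccl3 had 105 CPM in PARP2 WT replicate 1, 146 in PARP2 WT replicate 2, 62.5 in PARP2CKO replicate 1 and 64.0 in PARP2CKO replicate 2. The PARP2CKO libraries were close to each other and below both WT libraries, which were not close to each other. The log2 fold change of Ccl3 was -0.99 (95% interval -1.27 to -0.71, adjusted p = 0.0465 by edgeR's quasi-likelihood test).

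Ccl9 had 392 and 554 CPM in the PARP2 WT libraries and 234 and 236 CPM in the PARP2CKO libraries. As for Ccl3, the CKO libraries agreed closely and WT replicate 2 was the highest. Its log2 fold change was -1.01 (95% interval -1.3 to -0.72, adjusted p = 0.0465 by the same test).

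Ccl6 had 54.1 and 104 CPM in PARP2 WT, against 22.5 and 20.5 CPM in PARP2CKO. This was the largest fold change among the 10 ligands, and the ratio between the WT libraries was also the largest. Its log2 fold change was -1.88 (95% interval -2.49 to -1.26), and it did not pass over all genes (adjusted p = 0.116 by the quasi-likelihood test). Ccl4 had 47.1 and 80.1 CPM in PARP2 WT, against 26.5 and 34.9 CPM in PARP2CKO. Its log2 fold change was -1.05 (95% interval -1.54 to -0.56, adjusted p = 0.485 by the same test). The groups did not overlap for either gene.

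In the Ccl3, Ccl4, Ccl6 and Ccl9 group, then, 2 of 4 genes were called lower and none higher, with a median log2 fold change of -1.03 against -0.0014 over all genes tested. The test called 7 genes in all, or 0.053% of those tested, and 6 of them, 0.0455%, were lower. All 4 genes had both PARP2CKO libraries below both PARP2 WT libraries, as had 18.8% of all genes tested. The study singled out these 4 genes in these same libraries, so neither count is independent evidence of their direction. The likelihood-ratio test called all 4, where it called 0.296% of all genes, and DESeq2 called Ccl3, Ccl6 and Ccl9, where it called 0.205%. Neither Ccl3 nor Ccl9 was called when the model held no more than the PARP2 WT and PARP2CKO libraries (adjusted p = 0.214 for each from the quasi-likelihood test), or when genes needed at least 1 CPM in 2 libraries (adjusted p = 0.0581 for each). Nor was either called without PARP1 WT replicate 1 (adjusted p = 0.152 for each), PARP1 WT replicate 2 (0.15), PARP2CKO replicate 1 (0.293) or PARP2CKO replicate 2 (0.24), although the log2 fold changes then stayed between -1.01 and -0.97.

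**Figure D1:**
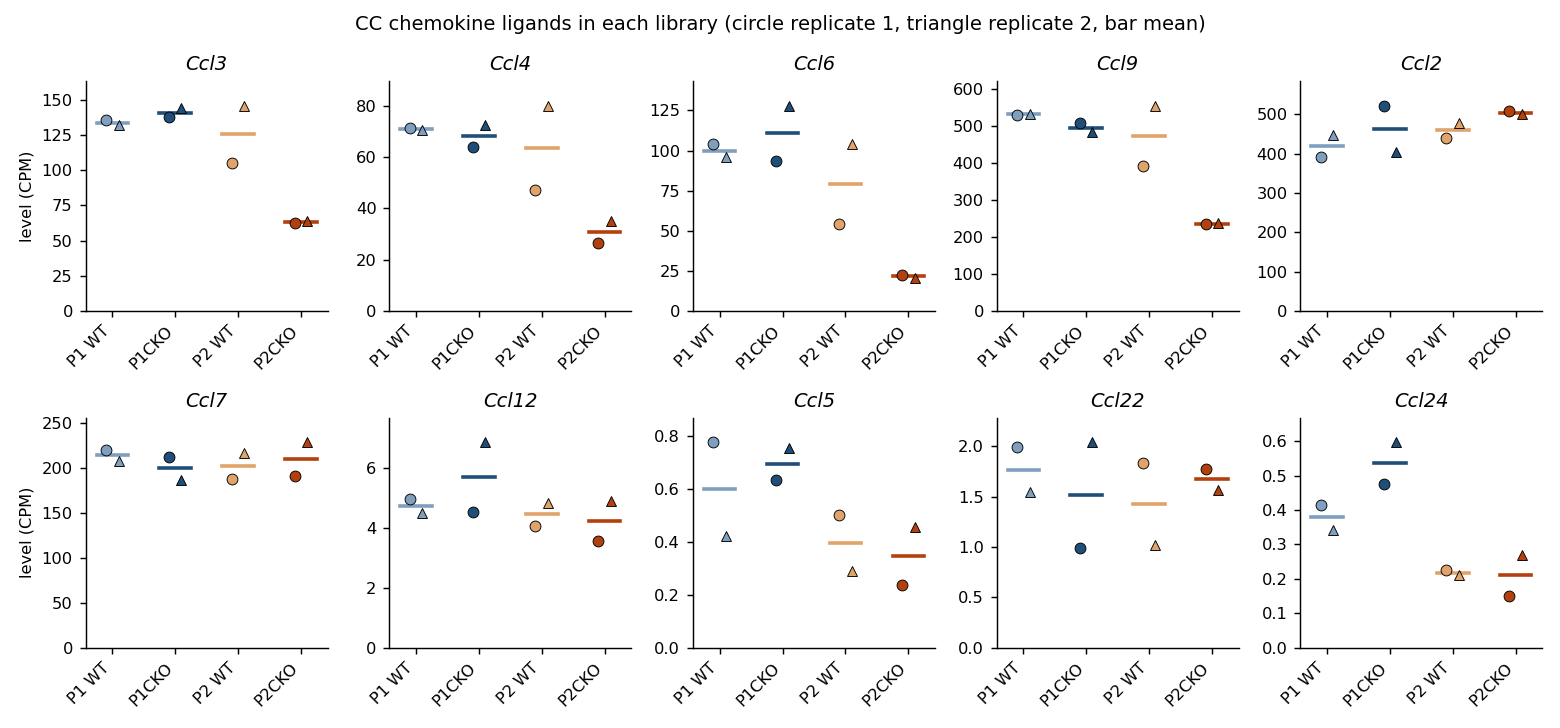
Level of each CC ligand in CPM (vertical axes, each from 0 and scaled to its gene) in the 8 libraries, by group on the horizontal axes (P1 WT is PARP1 WT, P2 WT is PARP2 WT). Circles are replicate 1, triangles replicate 2 and bars the mean of the 2 libraries. For Ccl3, Ccl4, Ccl6 and Ccl9 both PARP2CKO libraries lie below the other 6, PARP2 WT replicate 1 lies between, and the other 6 ligands show no such step.

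Called or not, the 4 genes shared 1 further feature, which is the split of the PARP2 WT libraries. Replicate 2 of PARP2 WT had 1.40 times the Ccl3 level of replicate 1, 1.70 times the Ccl4 level, 1.92 times the Ccl6 level and 1.41 times the Ccl9 level. Of all genes tested, 2.71% had a ratio as high as the lowest of these, and the median ratio over all genes was 1. For Ccl2 the ratio was 1.09 and for Ccl7 it was 1.16. PARP2 WT replicate 2 was within or slightly above the range of the 4 libraries from PARP1 mice, in which Ccl3 ranged from 132 to 144 CPM, Ccl4 from 64.1 to 72.6, Ccl6 from 93.3 to 128 and Ccl9 from 482 to 531. With PARP2 WT replicate 1 left out the log2 fold changes were -1.21 for Ccl3, -1.39 for Ccl4, -2.27 for Ccl6 and -1.24 for Ccl9, and all 4 genes were called among 19 in all. Without PARP2 WT replicate 2 they were -0.73, -0.62, -1.33 and -0.74, and Ccl3, Ccl6 and Ccl9 were called among 14 in all. Each such fit leaves 1 library in a group, whose spread is assumed to be that of the other groups.

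No monocyte chemoattractant of the left cluster had both PARP2CKO libraries below both PARP2 WT libraries. The left and right clusters were not tested against each other. Ccl2 had 439 and 479 CPM in PARP2 WT, against 508 and 500 CPM in PARP2CKO. Both CKO libraries were slightly higher, as were those of 18.4% of all genes tested, and the log2 fold change of 0.14 had an interval that spans 0 (-0.11 to 0.39, adjusted p = 0.956 by the quasi-likelihood test). Ccl7 had 187 and 216 CPM in PARP2 WT, against 191 and 228 CPM in PARP2CKO (log2 fold change 0.06, interval -0.17 to 0.28), and the groups overlapped. Ccl12, at 4.06 and 4.84 CPM in PARP2 WT, against 3.57 and 4.91 CPM in PARP2CKO, also overlapped (-0.08, interval -0.57 to 0.42). None of the 3 genes was called, their median log2 fold change was 0.06, and the intervals of Ccl2 and Ccl7 leave out a drop of the size seen for Ccl3.

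Ccl5 lies 42.4 kb from Ccl9 but was barely expressed. Its counts were 29 and 15 in the PARP2 WT libraries, against 14 and 22 in PARP2CKO, or 0.501 and 0.288 CPM against 0.235 and 0.456 CPM. The groups overlapped, and the interval of its log2 fold change (-0.24, from -1.27 to 0.79) was too wide at this depth to separate it from Ccl3 or from no change. Ccl24, the CCR3 ligand, had 13 and 11 counts in PARP2 WT, against 9 and 13 in PARP2CKO, with an interval from -1.0 to 0.82. Ccl22 was at 1.83 and 1.02 CPM in PARP2 WT, against 1.78 and 1.57 CPM in PARP2CKO (log2 fold change 0.23, interval -0.57 to 1.02). Neither distant gene was called, and their groups overlapped.

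**Figure D2:**
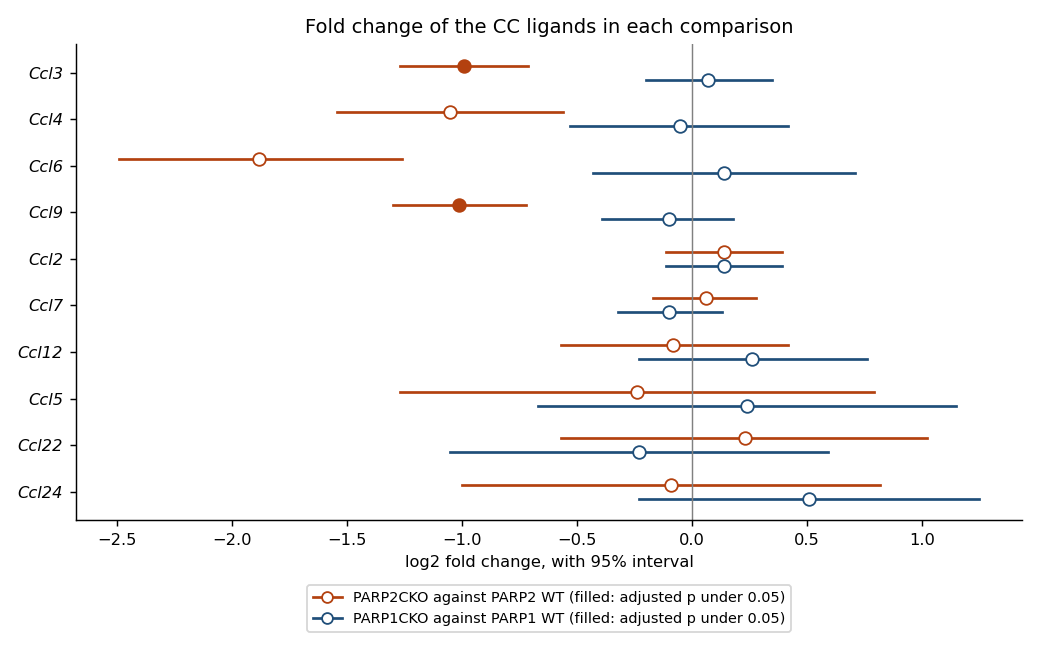
Log2 fold change of each CC ligand (horizontal axis) with its 95% interval as a line, for PARP2CKO against PARP2 WT (orange) and PARP1CKO against PARP1 WT (blue). Filled points passed an adjusted p of 0.05, which were Ccl3 and Ccl9 in PARP2CKO. The PARP2CKO intervals of Ccl3, Ccl4, Ccl6 and Ccl9 lie below 0, and every other interval drawn spans 0.

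The shift can also be read within a library, as a share that does not depend on scaling between libraries. Ccl3, Ccl4, Ccl6 and Ccl9 together gave 32.9% and 32.6% of the counts of the 10 ligands in the PARP2CKO libraries, 48.6% and 55.8% in PARP2 WT, and between 52.0% and 57.9% in the PARP1 WT and PARP1CKO libraries. Their summed level was 346 and 356 CPM in PARP2CKO against 598 and 884 CPM in PARP2 WT, while the sum of Ccl2, Ccl7 and Ccl12 was 703 and 733 CPM against 630 and 700 CPM. In all 8 libraries the left-cluster sum stayed between 597 and 739 CPM.

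Ratios between single genes within a library were read in the same way. Ccl3 reads per Ccl2 read were 0.123 and 0.128 in PARP2CKO, 0.239 and 0.305 in PARP2 WT, and between 0.265 and 0.357 in the other 4 libraries. Within the right cluster the ratio of Ccl4 to Ccl3 overlapped between the groups, at 0.424 and 0.546 in PARP2CKO and 0.449 and 0.548 in PARP2 WT. The ratio of Ccl6 to Ccl9 did not, at 0.0959 and 0.0867 in PARP2CKO against 0.138 and 0.188 in PARP2 WT, so Ccl6 was lower relative to Ccl9 as well. With 2 libraries a group an exact permutation test of a single ratio cannot give a two-sided p under 0.333, and none was run.

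In the PARP1CKO comparison 0 of the 10 ligands were called, where the test called 14 genes or 0.106% of those tested, and none had an unadjusted p under 0.05, beside 11.3% of all genes tested. DESeq2 and the likelihood-ratio test called none of the 10 either. Ccl3 had 136 and 132 CPM in PARP1 WT, against 138 and 144 CPM in PARP1CKO. Both CKO libraries were marginally higher, as were those of 21% of all genes, with a log2 fold change of 0.07 (-0.2 to 0.35). Ccl9 had 530 and 531 CPM in PARP1 WT, against 507 and 482 CPM in PARP1CKO, both lower, as were those of 20.2% of all genes, with a log2 fold change of -0.1 (-0.39 to 0.18). Both intervals leave out the log2 fold change that the same gene had in PARP2CKO.

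Ccl4 and Ccl6 overlapped between the PARP1 groups, Ccl4 at 71.3 and 70.5 CPM against 64.1 and 72.6 and Ccl6 at 104 and 95.9 CPM against 93.3 and 128. Ccl2 was at 391 and 448 CPM in PARP1 WT, against 522 and 403 CPM in PARP1CKO, and Ccl7 at 220 and 207 CPM against 212 and 186. The log2 fold change of Ccl2, 0.14, was that seen in PARP2CKO, but its groups overlapped here. Ccl24 was the remaining ligand whose PARP1 groups did not overlap, with 16 and 17 counts in the PARP1 WT libraries against 24 and 27 in PARP1CKO (log2 fold change 0.51, interval -0.23 to 1.25, adjusted p = 0.58 by the quasi-likelihood test).

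Whether the PARP2CKO effect departed from the PARP1CKO effect was tested as an interaction in the same model. It was -1.06 for Ccl3 (95% interval -1.45 to -0.67, adjusted p = 0.122), -2.02 for Ccl6 (adjusted p = 0.176), -0.91 for Ccl9 (adjusted p = 0.239) and -1.0 for Ccl4 (adjusted p = 0.571), all by edgeR's quasi-likelihood test. None of the 10 passed, all of these 4 had an unadjusted p under 0.05, beside 7.69% of all genes tested, and the test called 2 genes in all, 0.0152%. The likelihood-ratio test called Ccl3, Ccl6 and Ccl9 beside 0.546% of all genes, and DESeq2 called Ccl3 and Ccl6 beside 0.311%. Without PARP2 WT replicate 1 the quasi-likelihood test called Ccl3, Ccl6 and Ccl9, and without PARP2 WT replicate 2 it called Ccl3 and Ccl9, with the same assumption on the lone library. For Ccl2 the difference was -0.0038 (interval -0.36 to 0.35) and for Ccl7 it was 0.15 (-0.16 to 0.47), and neither was called by any of the 3 tests.

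The Cre-free lines were compared to see how far the ligands differ before deletion. Line, litter and any culture or sequencing batch cannot be told apart in this comparison. Between PARP2 WT and PARP1 WT the test called 417 genes, 3.16% of those tested, and 0 of the 10 ligands, with no unadjusted p under 0.05 among them, beside 18.9% of all genes tested. DESeq2 and the likelihood-ratio test called none of the 10 either. The log2 fold change was -0.09 for Ccl3, -0.16 for Ccl4, -0.34 for Ccl6 and -0.17 for Ccl9, and the groups overlapped for all 4. Without PARP2 WT replicate 2 the values of Ccl3, Ccl6 and Ccl9 were -0.35, -0.89 and -0.44, and these 3 genes were called lower in the remaining PARP2 WT library, whose spread is taken from the other groups. Ccl24 was the 1 ligand with both PARP2 WT libraries below both PARP1 WT libraries, as for 25.2% of all genes (log2 fold change -0.77, adjusted p = 0.306 by the quasi-likelihood test). Its 16 and 17 counts in PARP1 WT and 13 and 11 counts in PARP2 WT are few.

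Between Ccl2 and Ccl4, a span of 1.63 Mb, the table held 36 other genes, of which 23 passed the filter. None was called in the PARP2CKO comparison by the quasi-likelihood test, and 6 had an unadjusted p under 0.05, as had 4.83% of all genes tested. Of the 23, 10 had both PARP2CKO libraries below both PARP2 WT libraries, or 43.5% against the 18.8% of all genes, and 4 had both above. Their median log2 fold change was -0.07. The smallest unadjusted p-values were those of 3 members of the Schlafen family, a tandem array of growth and antiviral genes. The other tested members had log2 fold changes from -0.57 (Slfn1) to 0.3 (Slfn5), and Slfn5 had both PARP2CKO libraries higher. Slfn10-ps had 18.0 and 21.8 CPM in PARP2 WT, against 13.5 and 13.2 CPM in PARP2CKO (log2 fold change -0.58, adjusted p = 0.121), Slfn8 had 13.3 and 19.9 CPM against 7.73 and 6.88 CPM (-1.18, adjusted p = 0.371), and Slfn9 had 27.4 and 31.8 CPM against 25.6 and 22.8 CPM (-0.29, adjusted p = 0.801, all from the quasi-likelihood test). Taf15, next to Ccl5, had 87.1 and 88.7 CPM in PARP2 WT, against 82.1 and 87.0 CPM in PARP2CKO (log2 fold change -0.06). Where along the chromosome the lower values begin was not tested.

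**Figure D3:**
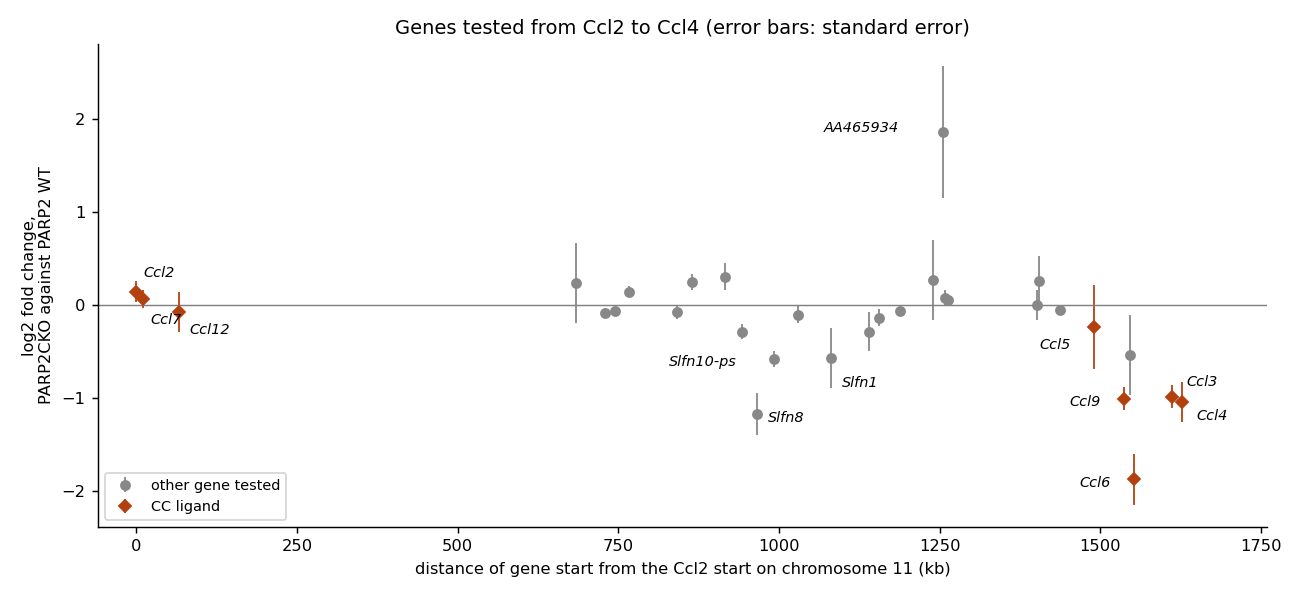
Log2 fold change of every tested gene from Ccl2 to Ccl4 in PARP2CKO against PARP2 WT (vertical axis, error bars are standard errors) by the distance of its lowest coordinate from that of Ccl2 in kb (horizontal axis). Diamonds are the CC ligands and grey circles the 23 other genes. Ccl2, Ccl7 and Ccl12 at the left lie near 0, Slfn8 lies at -1.18 in the middle, and Ccl9, Ccl6, Ccl3 and Ccl4 at the right lie between -1.88 and -0.99.

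The genes most like Ccl3, Ccl4, Ccl6 and Ccl9 were sought by the Pearson correlation of log2 CPM, over the 8 libraries, with the mean standardised level of the 4. The 4 ligands correlated with each other at 0.97 to 0.99 for the pairs with Ccl3. With Ccl3, the correlation was 0.64 for Ccl24, 0.51 for Ccl12 and for Ccl5, 0.0 for Ccl7, -0.26 for Ccl22 and -0.5 for Ccl2. All genes share the 8 libraries, and PARP2CKO is the lowest group for each of the genes named next. The 5 most alike were Nlrp1a (0.984), Slc25a53 (0.979), Slfn10-ps (0.978), Nlrp1c-ps (0.972) and Txlnb (0.97). Of these, 3 lie on chromosome 11, Slfn10-ps between the ligand clusters and Nlrp1a and Nlrp1c-ps from 71092236 to 71144704 and from 71242430 to 71285232. Nlrp1a, an inflammasome sensor, had 9.55 and 17.9 CPM in PARP2 WT, against 2.08 and 1.74 CPM in PARP2CKO. Its log2 fold change was -2.83 (adjusted p = 0.014 by the quasi-likelihood test). Nlrp1c-ps had 3.51 and 6.15 CPM in PARP2 WT and no read in PARP2CKO (adjusted p = 0.003 by the same test). Nlrp1a and Nlrp1c-ps were thus called, and Slc25a53, Slfn10-ps and Txlnb were not. Reads may be shared between the related genes Nlrp1a and Nlrp1c-ps, which was not measured.

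PARP2 WT replicate 1 often lay midway for these genes. On a scale where the PARP2CKO mean is 0 and PARP2 WT replicate 2 is 1, replicate 1 was at 0.501 for Ccl3, 0.332 for Ccl4, 0.395 for Ccl6 and 0.493 for Ccl9. It was at 0.48 for Slfn8, 0.555 for Slfn10-ps, 0.423 for Slfn9, 0.479 for Nlrp1a and 0.571 for Nlrp1c-ps on chromosome 11, and at 0.493 for Txlnb and 0.742 for Slc25a53 on other chromosomes. The 5 most alike genes were picked for their correlation over libraries that include this one, so their place follows in part from the choice. AA465934, between the clusters, was picked out after its values were seen: it went the other way, from 2.68 and 0.115 CPM in PARP2 WT to 5.31 and 5.09 CPM in PARP2CKO (adjusted p = 0.954 by the quasi-likelihood test), with replicate 1 at 0.496 on this scale. For Parp2 the place was 0.993, since both WT libraries had nearly the same Parp2 level. Among genes with an unadjusted p under 0.05 and both PARP2CKO libraries lower, the median place was 0.719 for 32 on chromosome 11 without the ligands (quartiles 0.54 and 1.03) and 0.863 for 287 elsewhere (quartiles 0.641 and 1.25). This scale was devised after the values were seen and is given as a description. The genotype of the mice along chromosome 11, beyond what the labels give, was not analysed here, and its part in the values of Ccl3, Ccl4, Ccl6, Ccl9 and these other genes was not tested.

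**Figure D4:**
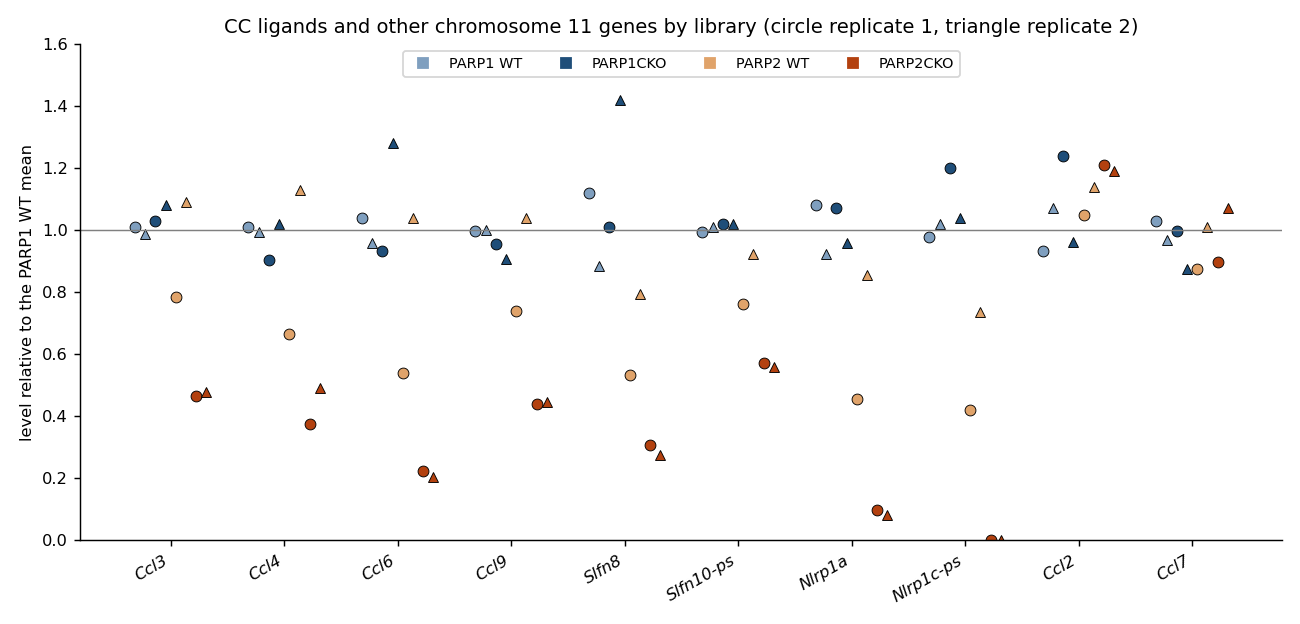
Level of 10 chromosome 11 genes in each library (vertical axis, relative to the mean of the 2 PARP1 WT libraries, which is the line at 1), with groups by color, circles for replicate 1 and triangles for replicate 2. In Ccl3, Ccl4, Ccl6, Ccl9, Slfn8, Slfn10-ps, Nlrp1a and Nlrp1c-ps the PARP2CKO libraries are lowest and PARP2 WT replicate 1 lies between them and PARP2 WT replicate 2. In Ccl2 and Ccl7 that order is absent.

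None of the receptors of these ligands was called in a CKO comparison. The table held 16 CC receptor genes, of which 9 passed the filter, and 0 were called in PARP2CKO, in PARP1CKO or in the difference by the quasi-likelihood test, with 2 of the 9 under an unadjusted p of 0.05 in PARP2CKO, beside 4.83% of all genes tested. Ccr1, the receptor of CCL3, CCL6 and CCL9, had 57.2 and 51.5 CPM in PARP2 WT, against 59.2 and 50.6 CPM in PARP2CKO. Ccr2, the receptor of CCL2, was at 74.0 and 66.1 CPM against 68.2 and 65.3 CPM, and Ccr3, the receptor of CCL24, at 1.99 and 1.61 CPM against 2.48 and 2.03 CPM. Ccr4, the receptor of CCL22, had at most 4 counts in a library and was not tested.

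In PARP1CKO both Ccr1 and Ccr2 had lower values without a call, with log2 fold changes of -0.31 for Ccr1 (adjusted p = 0.335) and -0.34 for Ccr2 (adjusted p = 0.289, both from the quasi-likelihood test). Of 14 further CC ligand genes in the table only Ccl25 and Ccl27a passed the filter, and neither was called in any of the 4 comparisons.

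Transcription factors known to act on chemokine promoters, and regulators of these factors, were examined as lists. In PARP2CKO none of the 16 genes of the NF-kB and IRF list, which includes the NF-kB inhibitors Nfkbia, Nfkbib, Nfkbie and Tnfaip3, was called (median log2 fold change 0.0, range -0.32 to 0.18), none of the 15 AP-1, EGR, C/EBP and PU.1 factors (median 0.03, range -1.58 to 0.31), and none of the 10 beta-catenin pathway genes that passed the filter (median 0.03, range -0.46 to 0.9). Under an unadjusted p of 0.05 these lists held 1, 3 and 0 genes, beside 4.83% of all genes tested, and the 1 gene of the first list was Tnfaip3 (0.18, adjusted p = 0.888). The low end of the second range is Egr1 (adjusted p = 0.538 by the quasi-likelihood test). Egr1 also had a lower value without a call in PARP1CKO (-2.51, adjusted p = 0.0597). It had 41.0 and 79.1 CPM in PARP2 WT, against 17.6 and 22.6 CPM in PARP2CKO. The others of the second list were Fosb (-1.42, adjusted p = 0.849) and Cebpa (0.31, adjusted p = 0.888, by the same test). Fosb had 1.73 and 4.69 CPM in PARP2 WT, against 1.39 and 0.953 CPM in PARP2CKO. In PARP1CKO it had a lower value without a call (-3.08, adjusted p = 0.0549). The high end of the third range is Lef1, a factor that binds beta-catenin, with 7 and 6 counts in PARP2 WT against 11 and 13 counts in PARP2CKO (adjusted p = 0.954). Ctnnb1, which encodes beta-catenin, had a log2 fold change of 0.17 (adjusted p = 0.954). The beta-catenin pathway list, which holds regulators and targets besides factors, summed to 1490 and 1470 CPM in the PARP2 WT libraries. Both PARP2CKO libraries were higher, at 1580 CPM, a sum that PARP1CKO replicate 1 also reached. Its most abundant genes were Ccnd1 (643 and 661 CPM in PARP2 WT, against 658 and 724 CPM in PARP2CKO) and Ctnnb1 (461 and 422 CPM against 532 and 459 CPM). The groups overlapped for both genes. The part of the genes on these lists in the ligand values was not tested. In PARP1CKO Fos fell, from 173 and 147 CPM to 69.7 and 47.1 CPM (log2 fold change -1.45, adjusted p = 0.0355 by the same test). Between the Cre-free lines Egr2 (1.25) and Cebpa (0.51) were higher in PARP2 WT.

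Markers of other cell types that the cultures could hold were read beside the ligands. No marker was called in PARP2CKO by the quasi-likelihood test. That test called 0.053% of all genes tested, so the lack of a call does not show that these cells were unchanged. Basophil and mast cell markers, 7 of 7 measured, had lower fitted values in PARP2CKO, 5 of 7 with both PARP2CKO libraries below both PARP2 WT libraries (18.8% of all genes tested), and summed to 16.7 and 13.6 CPM in PARP2 WT, against 8.94 and 11.3 CPM in PARP2CKO. Between the PARP2 WT libraries the sum was higher in replicate 1, which rested on Hdc (5.53 and 0.98 CPM). Without Hdc it was 11.1 and 12.6 CPM in PARP2 WT, against 8.13 and 10.5 CPM in PARP2CKO, and 5 of the 6 other markers were higher in replicate 2. Neutrophil markers, 7 of 8 with lower fitted values and 5 with both libraries lower, summed to 3270 and 3040 CPM against 3020 and 2660 CPM. Among them Retnlg (-0.61, adjusted p = 0.371) and Cxcr2 (-0.49, adjusted p = 0.721, by the quasi-likelihood test) had the largest drops. Eosinophil markers summed to 16.6 and 9.28 CPM against 8.7 and 9.8 CPM. That sum rested on Prg2 (14.6 and 8.65 CPM against 7.49 and 8.22 CPM), and 2 of the 3 eosinophil markers had higher fitted values in PARP2CKO. The myeloid list, of which 7 of 8 genes were analysed, summed to 14100 and 15200 CPM against 11400 and 10200 CPM, most of it Lyz2, the gene that carries the Cre. Macrophage markers summed to 1660 and 1830 CPM against 1690 and 1700 CPM. Dendritic cell markers, 3 of 6 with lower fitted values, summed to 43.3 and 33.0 CPM against 40.0 and 39.4 CPM. Among them Cd209a had 5.62 and 5.19 CPM against 2.63 and 4.39 CPM (-0.64, adjusted p = 0.927 by the quasi-likelihood test). T and NK cell markers, of which all 3 tested had lower fitted values, summed to 4.55 and 5.06 CPM against 3.34 and 4.14 CPM, so both PARP2CKO libraries were lower. Among them Cd3e had at most 6 counts in a library and Nkg7, a cytotoxic granule gene, had 2.25 and 2.69 CPM against 1.94 and 1.88 CPM. The part of these cells in the ligand values was not tested.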

How the data were processed

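Total RNA of M-CSF cultured bone marrow cells was sequenced in 8 libraries, 2 for each of 4 groups taken from the sample labels. The authors deposited 1 table of raw read counts per gene. By their methods, fastq-mcf trimmed the single-end reads, TopHat 2.0.12 aligned them to mm10, Picard 1.127 marked duplicates and featureCounts counted reads on genes. The annotation, the strand setting and whether marked duplicates were dropped are not given in the sources used here.

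Genes that passed edgeR's filterByExpr (13197 of 24062, with 6520 at 0 in all libraries) were scaled by TMM (factors between 0.965 and 1.03) and tested in 1 model of all 8 libraries by edgeR's quasi-likelihood method, taking a Benjamini-Hochberg adjusted p under 0.05 over all genes tested as a call (R 4.3.3, edgeR 4.0.16, DESeq2 1.42.0, matplotlib 3.10.9). The study's methods name edgeR and a false discovery rate of 0.05. The script was tested on simulated data. In every group the libraries were further apart than counting noise allows (chi-square per gene from 8.32 to 12.6), and the biological coefficient of variation was 0.055.

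The members and lists were chosen with earlier results of these data known. The genes named are the 10 ligands, Parp1, Parp2, Ccr1, Ccr2, Ccr3, Ccr4, every called gene of the ligand, receptor and factor lists (1 receptor gene is not reported here), the 3 genes between Ccl2 and Ccl4 with the smallest unadjusted p in PARP2CKO, and the 5 most correlated with Ccl3, Ccl4, Ccl6 and Ccl9. Others are markers or were picked after their values were seen (Taf15, Slfn1, Slfn5, Egr1, Fosb, Ctnnb1, Ccnd1, Lef1, the NF-kB inhibitors, AA465934, and genes that overlap a ligand). Alternatives were DESeq2's size factors, DESeq2, the likelihood-ratio test, the libraries of a comparison alone, other filters, a replicate block, another gene length, and leaving out each library. Over the 8 libraries, stromal markers summed to between 1.72 and 3.57 CPM, erythroid markers to between 2.96 and 9.89 CPM and B cell markers to 26.5 to 38.2 CPM in PARP1 mice and 7.48 to 10.4 CPM in PARP2 mice.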

Additional observations from a re-analysis of the deposited data

Results flagged for a closer look

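Ccl3 was picked out because the CKO libraries lay on opposite sides of WT in the 2 lines. Both PARP1CKO libraries (138 and 144 CPM) lay above both PARP1 WT libraries (136 and 132 CPM), and both PARP2CKO libraries (62.5 and 64.0 CPM) lay below both PARP2 WT libraries (105 and 146 CPM). The difference between the effects was -1.06 on the log2 scale and did not pass over all genes in edgeR's quasi-likelihood test of the interaction (adjusted p = 0.122). The PARP1CKO value was 0.07 with an interval from -0.2 to 0.35. Both PARP1CKO libraries were higher for 21% of all genes tested, and both PARP2CKO libraries lower for 18.8%.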

How the results depend on the processing

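Of the 10 ligands, 2 were called in PARP2CKO. The number was 4 with the likelihood-ratio test and with no filter on low counts, and 0 in the libraries of the comparison alone and with at least 1 CPM in 2 libraries, a filter that also removed Ccl5 and Ccl24. With each library left out it ranged from 0 to 4, with 0 without either PARP1 WT or either PARP2CKO library and 4 without PARP2 WT replicate 1. For the difference between the effects, 0 were called, against 2 with DESeq2, 3 with the likelihood-ratio test and 3 with no filter, and from 0 to 3 with a library left out, the 3 being without PARP2 WT replicate 1. In PARP2 WT against PARP1 WT 0 were called, and from 0 to 3 with a library left out, the 3 being without PARP2 WT replicate 2. In PARP1CKO 0 were called under every alternative. The direction of Ccl3, Ccl4, Ccl6 and Ccl9 in PARP2CKO held under all alternatives run. The cause of the changed calls was not tested.

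The replicate numbers did not pair the libraries (correlation of deviations -0.13 in PARP1 and 0.15 in PARP2). A replicate block left Ccl3 and Ccl9 called and added Ccl4 in PARP2CKO (adjusted p = 0.0282), with 11 genes called in all against 7. With the PARP1 numbers crossed, chosen after seeing the data, 46 genes were called in PARP1CKO against 14. Over all genes, PARP2CKO calls were 27 with DESeq2, 39 with the likelihood-ratio test and 26 with no filter. For PARP1CKO they were 80, 146 and 101, and for the difference 41, 72 and 61, with 1 under the block against 2. PARP2 WT against PARP1 WT gave 910 calls with the likelihood-ratio test, 872 with no filter and 267 with the block against 417. The difference of the effects was not run on the libraries of 1 comparison.

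The following values changed sign. The Ccl2 difference was -0.0038, and 0.00049 with DESeq2's size factors, 0.00037 with DESeq2 and 0.0061 with the replicate block. With a library left out, log2 fold changes in PARP2CKO ranged from -0.08 to 0.18 (Ccl7), -0.32 to 0.14 (Ccl12), -0.76 to 0.22 (Ccl5), -0.12 to 0.72 (Ccl22) and -0.53 to 0.3 (Ccl24). In PARP1CKO they ranged from -0.15 to 0.03 (Ccl4), -0.1 to 0.35 (Ccl6), -0.06 to 0.31 (Ccl2), -0.06 to 0.54 (Ccl12), -0.17 to 0.7 (Ccl5) and -0.83 to 0.21 (Ccl22), and the Ccl2 difference from -0.18 to 0.19. In PARP2 WT against PARP1 WT they ranged from -0.35 to 0.13 (Ccl3), -0.59 to 0.18 (Ccl4), -0.89 to 0.06 (Ccl6), -0.44 to 0.06 (Ccl9), -0.19 to 0.02 (Ccl7), -0.22 to 0.04 (Ccl12) and -0.79 to 0.06 (Ccl22), and Ccl3, Ccl6 and Ccl9 were each called with 1 library left out (adjusted p = 0.0265, 0.0429 and 0.0181 by edgeR's quasi-likelihood test). Ccl5 in PARP2 WT was 0.411 CPM per kb of merged exons and 0.591 per kb of its longest transcript. Ccl5 and Ccl24 had at most 34 counts in a library, which limits what their values can show.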
